A study of Mus musculus with 9 samples.

Results

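The S100 genes encode small calcium-binding proteins, and 9 of them, S100a1, S100a3, S100a4, S100a6, S100a8, S100a9, S100a10, S100a11 and S100a13, were followed across 3 populations of sorted lung macrophages. They were picked by gene symbol from a given list, so 9 of the 24346 gene symbols in the files are described here. Expression had been measured by RNA sequencing of polyA RNA in 9 samples, all from C57BL/6 mice at postnatal week 10. The methods describe the mice as female. Ctrl-AM were alveolar macrophages (AMs, the resident macrophages of the airspaces) from mice that had received vehicle. Tumor-AM were the same cell type from mice whose left lung had been injected with Lewis lung carcinoma (LLC) cells, a C57BL/6 lung cancer line that here carried the fluorescent protein tdTomato and was injected in a basement membrane gel. Tumor-macrophage were the tumor-associated macrophages (TAMs) of such tumor-bearing mice. Each group had 3 samples, which the methods describe as separate mice. No group carried a deleted gene or a transgene in the mice.

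All 3 populations were sorted from CD45+ cells with strong autofluorescence. The paper describes the AMs among them as positive for Siglec-F and F4/80. It describes the TAMs as positive for F4/80 and CD11b without Siglec-F. Control and tumor-bearing mice had been bred separately, so an effect of separate housing and an effect of the tumor cannot be told apart. The sources used here do not state whether AMs and TAMs were sorted from the same tumor-bearing mice. In bulk RNA of this kind, fewer cells of a type and less RNA per cell cannot be told apart either.

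As background, S100 proteins mostly form dimers inside the cell, change shape when calcium binds and then dock onto partners such as annexins, myosin or ubiquitin ligase adaptors. Several also leave the cell by routes that bypass the secretory pathway and act as danger signals on the receptor for advanced glycation end products (RAGE, gene Ager) and on Toll-like receptor 4 (Tlr4). In myeloid cells S100a8 and S100a9 form calprotectin, a very abundant cytosolic complex of neutrophils and of recruited monocytes, while S100a4 and S100a6 are common in motile and monocyte-derived cells. S100a10 is the exception in the family, since it no longer binds calcium and sits in a tight complex with annexin A2.

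All 9 genes lie on mouse chromosome 3. According to GENCODE vM21 (GRCm38, that is, mm10, the build of the files), S100a1, S100a13, S100a3, S100a4, S100a6, S100a8 and S100a9 follow each other in this order within chr3:90511034-90695721, a stretch of 184.7 kb. This stretch holds 16 annotated genes, of which 12 are in the files, and all 12 are S100 genes. S100a11 and S100a10 lie apart, at chr3:93520488-93526287 and chr3:93555080-93564643, with 2825 kb between the end of S100a9 and the start of S100a11. RefSeq promoter sequences (GRCm38.p6) were at hand for 8 of the 9 members, with S100a10 as the exception.

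The upstream sequences of 3 neighbouring pairs are shown because these pairs are the ones the results compare: S100a4 and S100a6, which were higher in both tumor populations, S100a8 and S100a9, which encode the chains of 1 complex, and S100a1 and S100a13, whose transcripts start back to back. Each sequence runs 5′ to 3′ on the gene's own strand and ends where the transcript begins, and capitals mark matches to the motifs named after them. The S100a4 stretch is chr3:90603520-90603769 on the plus strand, the S100a6 stretch chr3:90612644-90612881 on the plus strand, the S100a8 stretch chr3:90668821-90668977 on the plus strand and the S100a9 stretch chr3:90695722-90695971 on the minus strand. The last sequence is the gap of 42 bases between the starts of S100a1 (minus strand) and S100a13 (plus strand), chr3:90514393-90514434, read on the plus strand.
S100a4: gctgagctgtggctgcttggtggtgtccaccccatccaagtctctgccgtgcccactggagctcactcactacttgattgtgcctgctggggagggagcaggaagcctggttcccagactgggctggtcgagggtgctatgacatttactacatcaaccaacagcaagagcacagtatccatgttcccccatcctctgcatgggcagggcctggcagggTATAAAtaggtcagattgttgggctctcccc
S100a6: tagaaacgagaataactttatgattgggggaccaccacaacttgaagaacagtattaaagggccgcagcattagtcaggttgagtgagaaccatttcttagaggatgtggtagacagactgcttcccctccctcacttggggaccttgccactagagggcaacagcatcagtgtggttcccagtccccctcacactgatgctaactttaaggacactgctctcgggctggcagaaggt
S100a8: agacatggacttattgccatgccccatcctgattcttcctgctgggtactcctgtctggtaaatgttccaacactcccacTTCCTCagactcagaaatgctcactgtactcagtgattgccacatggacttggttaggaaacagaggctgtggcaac
S100a9: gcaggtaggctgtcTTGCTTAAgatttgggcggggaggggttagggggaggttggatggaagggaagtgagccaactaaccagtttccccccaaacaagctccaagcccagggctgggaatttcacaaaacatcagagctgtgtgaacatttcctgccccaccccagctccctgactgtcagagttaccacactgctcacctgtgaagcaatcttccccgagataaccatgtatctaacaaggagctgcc
S100a1 and S100a13: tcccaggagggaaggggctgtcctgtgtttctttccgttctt

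A set of 5 motifs was searched on both strands of the 250 bases before each RefSeq start, namely the TATA box as TATAAA, AP-1 as TGANTCA, C/EBP as TTGCNNAA, PU.1 as GAGGAA, and the NF-kappaB motif. The S100a4 stretch holds TATAAA 31 bases before its start, a match found in 12.37% of 32851 mouse promoters of that length. S100a8 has TATAAA 30 bases before its RefSeq start and GAGGAA on the opposite strand (TTCCTC) at 170 and 36 bases before it. Of these, only the match at 170 bases is printed, since the annotated transcripts differ in where they start. GAGGAA is found in 23.25% of all promoters.

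S100a9 holds TTGCTTAA 236 bases before its start, a match to the C/EBP letters that 9.56% of promoters contain. S100a6 and the gap between S100a1 and S100a13 hold none of the 5 motifs. S100a11, not printed, has TGAGTCA at 136 and at 38 bases before its start, against 6.75% of promoters with any AP-1 match, and the NF-kappaB motif, which 0.98% of promoters hold, was not found in any of the 8. A match of this kind is a description of letters, and no binding was measured here.

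The files gave FPKM, that is, sequenced fragments normalized to the length of the transcript and to the mapped reads of the library, so levels of different genes can be set side by side on this scale. Depth, estimated from the steps between low values, lay between 11100000 and 14000000 reads per sample. The labelled cell types were checked against markers. Siglecf, which encodes the surface lectin that marked AMs, was between 164 and 209 FPKM in the 6 AM samples and at most 0.835 FPKM in Tumor-macrophage. C1qa, a complement gene listed here as a tumor macrophage marker, was at most 13.8 FPKM in the AM samples and at least 2075 FPKM in Tumor-macrophage. Itgam, which encodes the CD11b that marked TAMs, and Adgre1, which encodes the F4/80 that marked both cell types, were at most 4.52 and 145 FPKM in the AM samples and at least 134 and 321 FPKM in Tumor-macrophage.

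Changes are differences of group means of log2(FPKM + 1), fitted with limma over all 9 samples together and given with the standard error (SE) of the fit. Folds are on this same scale, which understates the change of genes with low values. Genes with at least 1 FPKM in at least 3 samples were tested, 10686 in all, and p-values were adjusted over all of them by Benjamini-Hochberg, with 0.05 taken as the limit. The p-values rest on the spread between samples of the same group, pooled over the 3 groups and drawn toward a trend over all genes. Of the 9 members, 8 passed the filter on low values, and S100a3 did not.

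S100 expression in AMs was dominated by S100a11, S100a10 and S100a1. Summed over all 17 S100 genes in the files, the level was 4319 ± 372 FPKM in Ctrl-AM (SD, n = 3), 4816 ± 565 FPKM in Tumor-AM and 1721 ± 149 FPKM in Tumor-macrophage, which was 0.663%, 0.671% and 0.225% of the summed FPKM of all genes. S100a11 alone held 57.4% of the S100 sum in Ctrl-AM and 58.4% in Tumor-AM, but 34.7% in Tumor-macrophage. S100a4 and S100a6 showed the opposite pattern, and together with a smaller total they made up a far larger part of S100 expression in TAMs than in AMs. For S100a4 the share went from 0.399% (Ctrl-AM) over 1.07% (Tumor-AM) to 8.76% (Tumor-macrophage), and for S100a6 from 0.768% over 2.75% to 13.03%. By mean FPKM, S100a11 ranked 18 among all genes for Ctrl-AM, 19 for Tumor-AM and 151 for Tumor-macrophage.

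**Figure D1:**
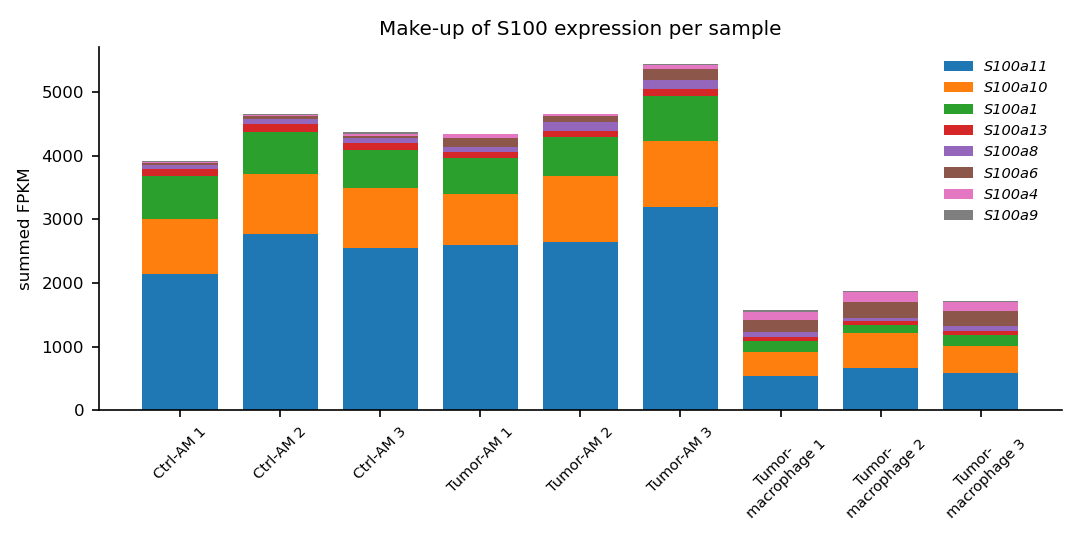
Stacked bars give the summed FPKM of the S100 genes in each of the 9 samples, split by gene. The 6 AM samples reach 3922 to 5438 FPKM, mostly S100a11 (blue), S100a10 (orange) and S100a1 (green), and the 3 Tumor-macrophage samples reach 1574 to 1871 FPKM with wider bands of S100a6 (brown) and S100a4 (pink).

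Between AMs of tumor-bearing and control mice, 2 of the 8 tested members rose (S100a4 and S100a6), 1 fell (S100a9) and 5 did not pass the threshold. Among all genes tested in this comparison 7.11% were higher and 3.18% lower in Tumor-AM. The values of the 2 groups did not overlap for 4 of the 8 members, against 32.3% of all genes. The median log2 change of the 8 members was 0.11, and that of all genes was 0.01. The balance of all calls moved with the scaling: it was 760 higher against 340 lower as deposited, 607 against 446 after quantile normalization and 475 against 824 after rescaling to TPM (the same sum of values in every sample).

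Between the tumor populations, 2 of the 8 members were higher in Tumor-macrophage than in Tumor-AM (S100a4 and S100a6), 5 were lower (S100a1, S100a8, S100a10, S100a11 and S100a13) and S100a9 did not pass. Of all genes, 24.2% were higher and 24.4% were lower in Tumor-macrophage, so the share of members that were higher was near that of all genes. The groups did not overlap for 7 of the 8 members, against 55.3% of all genes. The median log2 change was -0.81 over the members and 0.00 over all genes.

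Between Tumor-macrophage and Ctrl-AM, the same pair was higher, 4 members were lower (S100a1, S100a10, S100a11 and S100a13), and S100a8 and S100a9 did not pass. Here 27.7% of all genes were higher and 27.1% lower in Tumor-macrophage. For 6 of the 8 members the groups did not overlap, against 62.3% of all genes, and the median log2 change was -0.83 over the members and -0.01 over all genes. This balance, too, depended on the scaling, with 2960 genes higher and 2900 lower as deposited and 2130 higher and 4409 lower after rescaling to TPM. The 3 comparisons share samples in pairs, so they are not independent of each other.

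**Figure D2:**
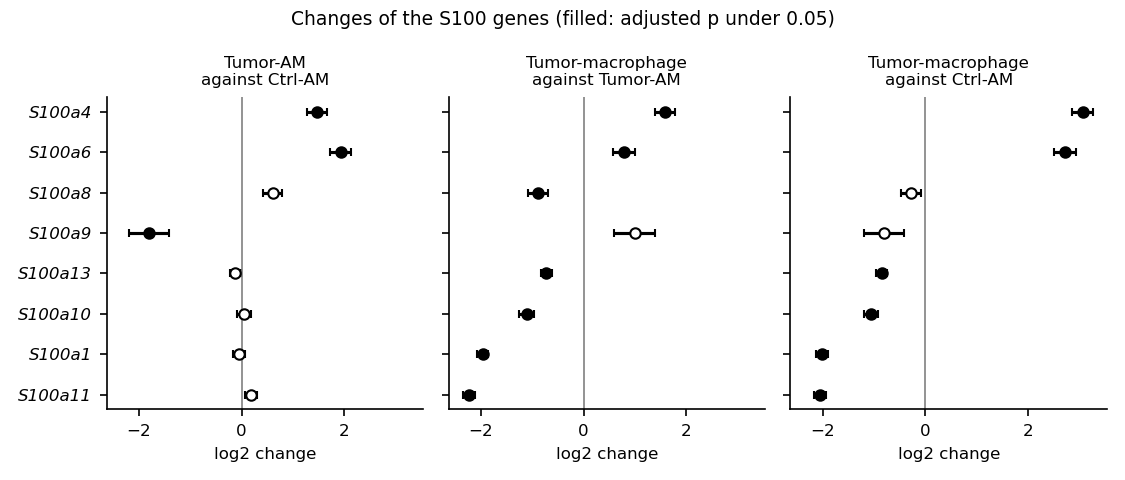
Each point is the log2 change of 1 gene in 1 of the 3 comparisons, with its standard error as a bar, and filled points have an adjusted p under 0.05. S100a4 and S100a6 lie above 0 in all 3 comparisons, whereas S100a1, S100a10, S100a11 and S100a13 lie near 0 between the AM groups and below 0 in both comparisons with Tumor-macrophage.

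S100a4 (chr3:90603771-90606045), also called metastasin, binds non-muscle myosin and is linked to cell motility. Its level was 15.95, 16.4 and 19.1 FPKM in Ctrl-AM 1, 2 and 3. It was 62.4, 33.2 and 57.2 FPKM in Tumor-AM and 138, 167 and 148 FPKM in Tumor-macrophage. The 3 groups were stepwise, with no overlap between any of them. S100a4 rose in Tumor-AM by 1.47 ± 0.20 on the log2 scale against Ctrl-AM, which is 2.77-fold (limma, adjusted p = 0.00169). It was higher again in Tumor-macrophage, by 1.59 ± 0.20 against Tumor-AM (3.02-fold, limma, adjusted p = 6.21e-05) and by 3.06 ± 0.20 against Ctrl-AM (8.36-fold, limma, adjusted p = 3.04e-07). Of the windows of 75 bases in its transcripts, 44.8% are shared with the overlapping gene model Gm42674, which is not analysed here, so that counting could have split reads between them.

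S100a6 (chr3:90612882-90624181), or calcyclin, binds the ubiquitin ligase adaptor Cacybp and is found in proliferating and migrating cells. In Ctrl-AM it was 29.5, 38.1 and 32.1 FPKM. In Tumor-AM it reached 131, 89.6 and 181 FPKM, and in Tumor-macrophage 192, 246 and 236 FPKM. As with S100a4, the groups did not overlap, although Tumor-AM 3 came close to the lowest Tumor-macrophage sample. The increase in Tumor-AM was 1.93 ± 0.21 on the log2 scale, or 3.80-fold (limma, adjusted p = 0.00058). Against Tumor-AM, S100a6 was higher in Tumor-macrophage by 0.79 ± 0.21 (1.73-fold, limma, adjusted p = 0.0103), and against Ctrl-AM by 2.72 ± 0.21 (6.59-fold, limma, adjusted p = 1.45e-06). Among all genes, its rank by mean FPKM moved from 2422 (Ctrl-AM) to 738 (Tumor-AM) and 455 (Tumor-macrophage).

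The ratio of the neighbours S100a4 and S100a6 overlapped between both AM groups. S100a4 was 0.541, 0.431 and 0.596 times S100a6 in Ctrl-AM samples and 0.477, 0.370 and 0.316 times in Tumor-AM, with no separation of the groups (exact permutation test, two-sided, p = 0.2). In Tumor-macrophage it was 0.716, 0.678 and 0.629 times S100a6. These ratios lay above all AM samples, 1.76-fold higher than in Tumor-AM, with the smallest p that 3 against 3 samples allow (exact permutation test, p = 0.1, or 0.15 adjusted over 15 tests of 5 ratios). The ratios were chosen with values of these genes known.

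Since TAMs had the highest levels of both genes, the AM levels were set against theirs together with the 17 tumor macrophage and monocyte markers. S100a4 in Tumor-AM stood at 33.7% of its Tumor-macrophage mean and S100a6 at 59.6%, while in Ctrl-AM they stood at 11.4% and 14.8%. The complement genes C1qa, C1qb and C1qc in Tumor-AM were at 0.451%, 0.692% and 0.457% of their Tumor-macrophage means. The chemokine receptors Cx3cr1 and Ccr2 were at 0.844% and 10.9%, and Itgam, which encodes the CD11b that marked TAMs, at 2.85%. Of the 17 markers, 14 reached a smaller part of their TAM level in Tumor-AM than S100a4 did, and the 3 that reached a larger one were the monocyte markers Vcan (89.9%), Hp (59.2%) and Fn1 (386%, since Fn1 was higher in AMs than in TAMs). Vcan was below the filter on low values, at most 0.440 FPKM in any sample, so its percentage is imprecise.

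Some markers of both other myeloid types rose together with S100a4 and S100a6 in Tumor-AM. Of 8 tumor macrophage markers, 4 rose in Tumor-AM (C1qa, C1qb, C1qc and Apoe) and 4 did not pass, and the summed level of the list was 349 to 457 FPKM in Ctrl-AM, 610 to 974 FPKM in Tumor-AM and 34969 to 48141 FPKM in Tumor-macrophage. Of 9 monocyte markers, 8 were tested and 6 rose, with sums of 72.6 to 91.9, 163 to 198 and 369 to 428 FPKM in the same order. Fn1 made up most of this sum in AMs, by means 58.6 of 81.4 FPKM in Ctrl-AM and 136 of 185 FPKM in Tumor-AM. In Tumor-macrophage it was only 35.3 of 396 FPKM, so the step between the AM sums was mostly Fn1. The others that rose were Ly6c2, Ccr2, F13a1, Hp and Itgam, whose means were lower in Tumor-AM than in Tumor-macrophage. None of the 17 markers was at 0 in all samples. Of 10 AM markers, 1 fell in Tumor-AM, the AM transcription factor Pparg, by 0.53 on the log2 scale (limma, adjusted p = 0.00455), and 9 did not pass. Tumor-AM 2, which had the lowest S100a4 and S100a6 of its group, stood apart in 3 of these markers, with Marco at 329 FPKM against 60.2 and 95.3, Car4 at 1169 FPKM against 554 and 658, and Chil3 at 36468 FPKM against 20425 and 21806 in Tumor-AM 1 and 3. Without Tumor-AM 2 the change from Ctrl-AM was 1.75 for S100a4 and 2.19 for S100a6 on the log2 scale, and both passed. The percentages given above are descriptive, and the part of these cell types in the S100 changes was not tested.

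**Figure D3:**
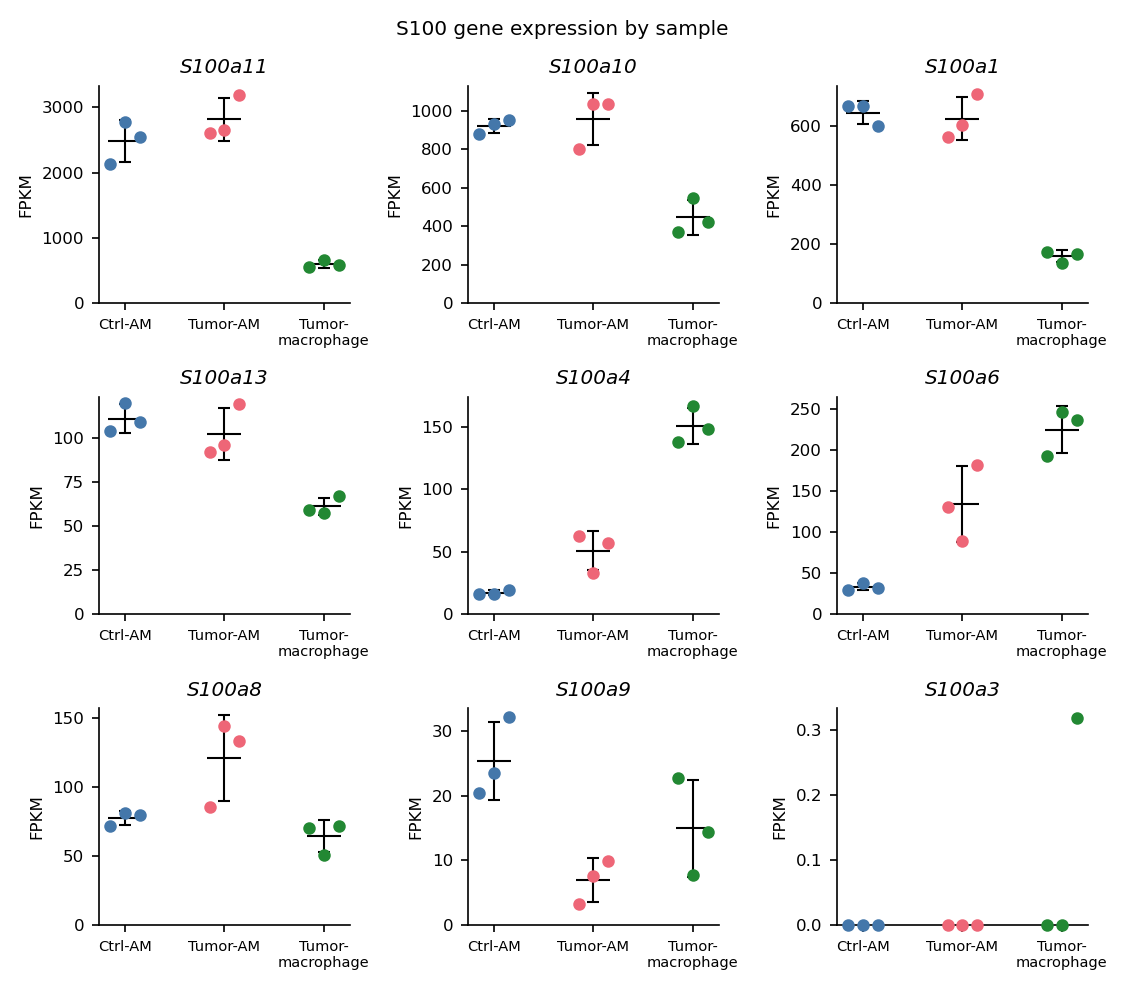
Each panel shows the FPKM of 1 S100 gene in the 9 samples (points) with the group mean and SD as lines, on a linear axis from 0. S100a4 and S100a6 step up from Ctrl-AM over Tumor-AM to Tumor-macrophage, S100a8 is highest and S100a9 lowest in Tumor-AM, and S100a3 is at 0 in 8 samples, so it has no mean line.

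S100a8 and S100a9 encode the partner chains of calprotectin. In Tumor-AM against Ctrl-AM, S100a9 fell and S100a8 did not pass the threshold. S100a8 (chr3:90668978-90670035) was 71.7, 81.4 and 79.9 FPKM in Ctrl-AM. It was 86.0, 144 and 134 FPKM in Tumor-AM and 70.3, 50.9 and 71.8 FPKM in Tumor-macrophage. Every Tumor-AM sample lay above every other sample, with Tumor-AM 1 only just so, and Ctrl-AM and Tumor-macrophage overlapped. The difference of Tumor-AM from Ctrl-AM was 0.60 ± 0.19 on the log2 scale with a 95% interval from 0.19 to 1.02, which did not pass after adjustment (limma, adjusted p = 0.0708). It passed without Tumor-AM 1 (0.83, adjusted p = 0.00897) and without Tumor-macrophage 2 (0.60, adjusted p = 0.0462). Against Tumor-AM, S100a8 was lower in Tumor-macrophage by -0.89 ± 0.19 (limma, adjusted p = 0.00256), and Tumor-macrophage and Ctrl-AM differed by -0.28 (95% interval -0.70 to 0.13, adjusted p = 0.226).

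S100a9 (chr3:90692632-90695721) was 20.4, 23.5 and 32.2 FPKM in Ctrl-AM. In Tumor-AM it was 3.28, 7.64 and 9.99 FPKM, and in Tumor-macrophage 22.8, 7.75 and 14.5 FPKM. All 3 Tumor-AM samples were below all 3 Ctrl-AM samples, and Tumor-macrophage overlapped with both. Against Ctrl-AM, S100a9 was lower in Tumor-AM by -1.81 ± 0.39 on the log2 scale, to 0.286 times the level (limma, adjusted p = 0.0173). This call was lost without Ctrl-AM 3 (-1.63, adjusted p = 0.0722) and with no filter on low values (adjusted p = 0.0575). Tumor-macrophage exceeded Tumor-AM by 0.99 ± 0.39 (limma, adjusted p = 0.0574), which passed without Tumor-AM 3 (1.28, adjusted p = 0.0299) or without Tumor-macrophage 2 (1.37, adjusted p = 0.0122). Against Ctrl-AM the difference of Tumor-macrophage was -0.81 (adjusted p = 0.102), and it passed without Tumor-macrophage 1 (-1.16, adjusted p = 0.0313).

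These S100a9 levels rest on few reads, an estimated 12 in the lowest sample (Tumor-AM 1) and 143 in the highest, compared with 166 to 544 for S100a8. Ctrl-AM had 3.51, 3.47 and 2.48 times as much S100a8 as S100a9, Tumor-AM had 26.2, 18.9 and 13.4 times as much, and Tumor-macrophage had 3.08, 6.56 and 4.97 times as much. Tumor-AM stood apart from both other groups without overlap, 6.03-fold above Ctrl-AM. The exact permutation test gave the smallest p that the design allows for both (two-sided, p = 0.1, or 0.15 adjusted over the 15 ratio tests). Between Tumor-macrophage and Ctrl-AM the ratios overlapped and differed 1.49-fold (exact permutation test, p = 0.3).

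**Figure D4:**
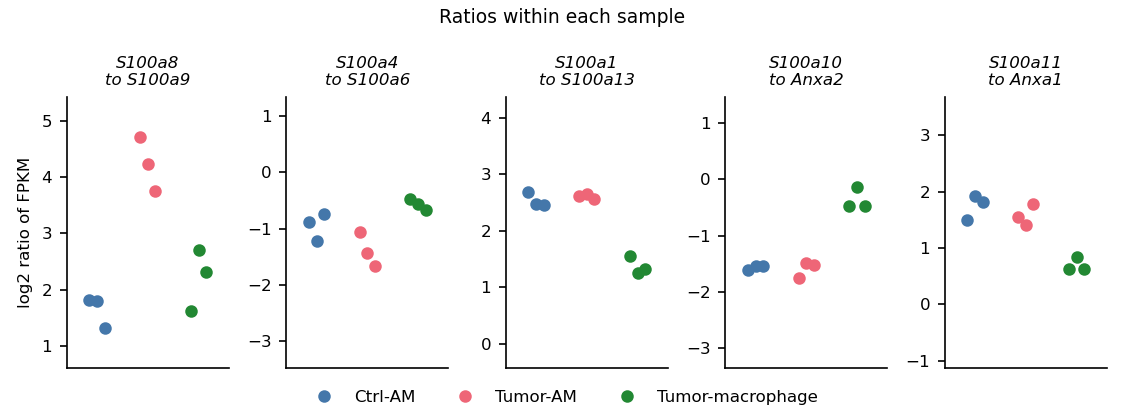
Points give the log2 ratio of FPKM of 2 genes in each sample, with axes of equal span in all 5 panels. The ratio of S100a8 to S100a9 is highest in the 3 Tumor-AM samples (13.4 to 26.2 on the linear scale), and the ratios of S100a1 to S100a13, S100a10 to Anxa2 and S100a11 to Anxa1 set Tumor-macrophage apart from both AM groups.

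Neutrophils carry much S100a8 and S100a9 RNA, so neutrophil genes were read in the same libraries. Of 20 neutrophil markers, 19 were in the files. Elane, which encodes neutrophil elastase, was at 0 in all samples, and Mpo, the myeloperoxidase gene, was at most 0.102 FPKM. Camp was at most 0.221 FPKM, Ltf at most 0.225 FPKM and Ngp at 0 in 7 samples but 1.80 FPKM in Ctrl-AM 3. Other granule genes were higher. Mmp8 was 30.7 to 49.1 FPKM in the 6 AM samples, Mmp9 6.55 to 12.96 FPKM in Tumor-macrophage, and Lcn2 at most 4.41 FPKM. Receptor genes of the list were also present, with Cxcr2 at 2.19 to 6.08 FPKM over all samples. Csf3r was 7.39 to 16.1 FPKM in the AM samples and 29.8 to 42.1 FPKM in Tumor-macrophage. In all, 8 of the 19 genes stayed under 1 FPKM in every sample.

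Of the 10 neutrophil markers tested, 2 rose in Tumor-AM against Ctrl-AM (Trem1 and Cd177), 1 fell (Retnlg) and 7 did not pass. The summed level was 192 to 225 FPKM in Ctrl-AM, 261 to 322 FPKM in Tumor-AM and 106 to 150 FPKM in Tumor-macrophage, and thus highest in the group with the highest S100a8. In both AM groups most of this sum was Trem1, a myeloid activation receptor that macrophages also express. Its level was 122 to 147 FPKM in Ctrl-AM and 186 to 238 FPKM in Tumor-AM. In Tumor-macrophage it was 23.3 to 26.1 FPKM, below the means of Il1r2 (42.7 FPKM) and Csf3r (37.0 FPKM). Cd177, a neutrophil surface protein gene, was 0.325, 0.342 and 0.228 FPKM in Ctrl-AM and 1.76, 1.91 and 1.49 FPKM in Tumor-AM, and it rose by 1.06 ± 0.16 on the log2 scale (limma, adjusted p = 0.00306). Retnlg, a gene typical of mature neutrophils, was lower in Tumor-AM, as S100a9 was. It was 3.66, 2.32 and 1.78 FPKM in Ctrl-AM, 0.216, 0.598 and 1.28 FPKM in Tumor-AM and 1.57, 0.437 and 0.601 FPKM in Tumor-macrophage, and it fell in Tumor-AM by 1.09 ± 0.29 on the log2 scale (limma, adjusted p = 0.0391). Between the tumor populations, 3 neutrophil markers were higher in Tumor-macrophage (Csf3r by 1.75, Il1r2 by 1.74 and Mmp9 by 2.90 on the log2 scale) and 4 were lower, and against Ctrl-AM likewise 3 and 4. The shares of all genes were 24.2% higher and 24.4% lower between the tumor populations, and 27.7% and 27.1% against Ctrl-AM. The part of neutrophil RNA in the S100a8 and S100a9 values was not tested.

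Among the receptors of extracellular S100 proteins, none of 4 passed the threshold between Ctrl-AM and Tumor-AM. The nearest were Cd36, at -0.69 with a 95% interval from -1.26 to -0.12 (limma, adjusted p = 0.122), and Bsg, whose values did not overlap, with 159 to 174 FPKM in Ctrl-AM and 180 to 187 FPKM in Tumor-AM (adjusted p = 0.211). Tlr4 was 28.3, 34.4 and 32.0 FPKM in Ctrl-AM, 30.2, 33.1 and 25.7 FPKM in Tumor-AM and 14.8, 16.5 and 14.6 FPKM in Tumor-macrophage, where it was lower than in Tumor-AM by -0.91 ± 0.11 (limma, adjusted p = 5.37e-05). Ager, the RAGE gene, was low, between 0.920 and 5.04 FPKM over all samples. Cd36, a scavenger receptor that binds the calprotectin complex, was lower in Tumor-macrophage than Tumor-AM by -0.91 ± 0.26 (limma, adjusted p = 0.0131). Bsg, which encodes the S100A9 receptor basigin, was the one that went up, by 0.36 ± 0.07 (limma, adjusted p = 0.00128), from 180 to 187 FPKM in Tumor-AM to 220 to 250 FPKM in Tumor-macrophage. Ager was also lower in Tumor-macrophage than Tumor-AM, by -0.95 ± 0.25 (limma, adjusted p = 0.00878).

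S100a11 (calgizzarin), which pairs with annexin A1 at membranes, was the most abundant S100 transcript in every sample. Its level was 2135, 2777 and 2543 FPKM in Ctrl-AM. It was 2598, 2648 and 3194 FPKM in Tumor-AM and 544, 659 and 589 FPKM in Tumor-macrophage. The AM groups overlapped, and all 3 Tumor-macrophage samples lay far below them. Tumor-AM and Ctrl-AM differed by 0.18 on the log2 scale with a 95% interval from -0.09 to 0.45 (limma, adjusted p = 0.400). In Tumor-macrophage S100a11 was lower by -2.23 ± 0.12 than in Tumor-AM (0.213 times, limma, adjusted p = 1.06e-07) and by -2.05 ± 0.12 than in Ctrl-AM (adjusted p = 1.44e-07). Processed pseudogenes, not analysed here, share 37.8% of its 75-base windows, so its absolute level is uncertain.

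S100a10 (p11) forms a complex with annexin A2 that binds plasminogen at the cell surface. It was 877, 934 and 951 FPKM in Ctrl-AM, 802, 1036 and 1034 FPKM in Tumor-AM and 372, 547 and 420 FPKM in Tumor-macrophage. Again the AM groups overlapped and Tumor-macrophage was below both. The AM groups differed by 0.05 on the log2 scale (95% interval -0.27 to 0.36, limma, adjusted p = 0.882), and the sign of this small difference turned under 2 scalings. Tumor-macrophage was lower than Tumor-AM by -1.11 ± 0.14 (0.464 times, limma, adjusted p = 7.77e-05) and lower than Ctrl-AM by -1.06 ± 0.14 (adjusted p = 8.96e-05).

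S100a1, best known as a regulator of calcium cycling in muscle, was the next most abundant S100 gene in AMs. It was 669, 670 and 602 FPKM in Ctrl-AM, 565, 607 and 709 FPKM in Tumor-AM and 175, 137 and 168 FPKM in Tumor-macrophage. The AM groups overlapped and differed by -0.05 on the log2 scale (95% interval -0.29 to 0.20, limma, adjusted p = 0.833). In Tumor-macrophage S100a1 was lower than in Tumor-AM by -1.97 ± 0.11, at 0.256 times the level (limma, adjusted p = 1.43e-07), and lower than in Ctrl-AM by -2.02 ± 0.11 (adjusted p = 8.70e-08).

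S100a13 takes part in the release of FGF1 and interleukin 1 alpha, proteins without a signal peptide. Its level was 104, 120 and 109 FPKM in Ctrl-AM, 92.3, 96.3 and 120 FPKM in Tumor-AM and 59.3, 57.5 and 67.0 FPKM in Tumor-macrophage. The pattern resembled that of S100a1 with a smaller step: no more than -0.12 between the AM groups (95% interval -0.36 to 0.12, limma, adjusted p = 0.544), and -0.73 ± 0.11 from Tumor-AM to Tumor-macrophage (limma, adjusted p = 0.000216). Against Ctrl-AM, Tumor-macrophage was lower by -0.85 ± 0.11 (limma, adjusted p = 5.95e-05).

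Although S100a1 and S100a13 start 42 bases apart on opposite strands, they did not fall by the same amount. Ctrl-AM had S100a1 at 6.42, 5.57 and 5.51 times S100a13, and Tumor-AM had it at 6.12, 6.30 and 5.93 times. In Tumor-macrophage it was 2.95, 2.38 and 2.503, below all AM samples and 0.425 times the Tumor-AM value (exact permutation test, two-sided, p = 0.1, the smallest possible, or 0.15 adjusted over 15 tests). Within the AM groups the ratio did not separate (exact permutation test, p = 0.4).

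**Figure D5:**
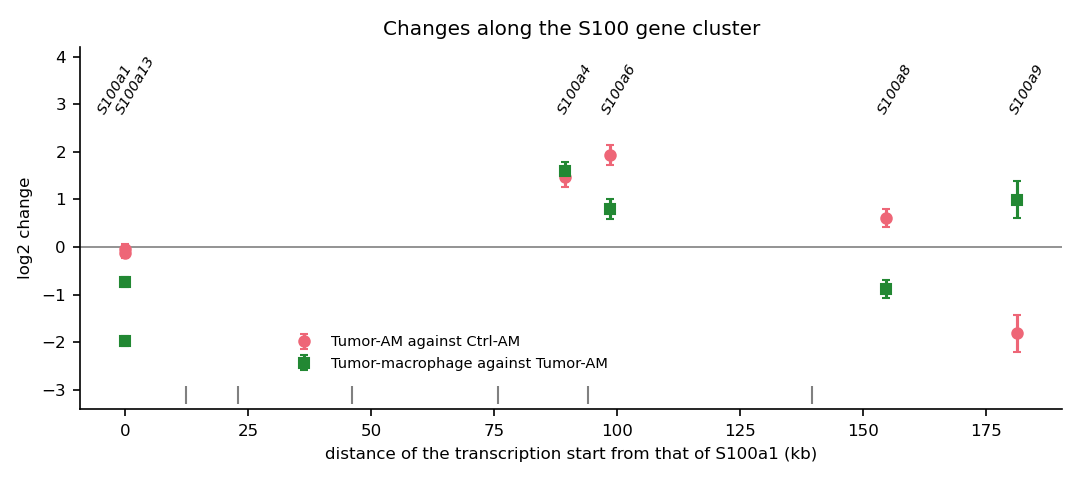
Log2 changes with standard errors of the 6 tested members in the S100a1 to S100a9 stretch are plotted against the distance of each transcription start from that of S100a1, in kb, for 2 comparisons. Ticks at the bottom mark the other 6 S100 genes of the stretch, which were at most 2.99 FPKM in any sample. S100a4 and S100a6 are above 0 in both comparisons, S100a8 and S100a9 each change sign between them, and S100a1 (-1.97, the lower square) and S100a13 (-0.73) are below 0 in Tumor-macrophage.

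S100a3, a gene known from the hair cuticle, was listed at 0 in 8 samples and at 0.318 FPKM in Tumor-macrophage 3, which stands for an estimated 1 to 12 reads. It was not tested in the filtered set, and in the fit without a filter no comparison passed (limma, adjusted p = 0.378 for Tumor-macrophage against Tumor-AM and 0.345 against Ctrl-AM). Of 9 further S100 genes, 8 were in the files and all were low. S100a2, S100a5 and S100z were listed at 0 throughout, and S100a7a, S100a14, S100b and S100g stayed under 1 FPKM. S100a16 was tested, at 1.05, 0.669 and 1.09 FPKM in Ctrl-AM, 1.72, 1.22 and 2.99 FPKM in Tumor-AM and 0.421, 1.33 and 1.22 FPKM in Tumor-macrophage, and did not pass in any comparison (limma, adjusted p = 0.173 between the AM groups). S100a14 ran from 0.296 to 0.561 FPKM among the Ctrl-AM samples, while each of the 3 Tumor-macrophage samples listed 0, which passed in the fit without a filter (limma, adjusted p = 0.00219). Within the stretch, S100a5 lies between S100a4 and S100a6 and S100a7a between S100a6 and S100a8, so these neighbours of expressed members were at or near 0.

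The intracellular partners of these proteins were followed as a list of 9 genes. In Tumor-AM against Ctrl-AM 3 of them rose, the annexin genes Anxa1, Anxa6 and Anxa11, and 6 did not pass. In Tumor-macrophage against Tumor-AM, 5 fell and 4 did not pass, and against Ctrl-AM 1 was higher and 4 were lower. Myh9, the myosin chain that S100a4 binds, had 26.1 to 26.5 FPKM in Ctrl-AM and 27.7 to 33.2 FPKM in Tumor-AM (limma, adjusted p = 0.140), and Cacybp, the partner of S100a6, had 64.4 to 70.6 and 62.7 to 70.8 FPKM (adjusted p = 0.899). So neither of these partners passed where S100a4 and S100a6 rose.

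Anxa2, the partner of S100a10, was 2688, 2725 and 2753 FPKM in Ctrl-AM, 2710, 2888 and 2978 FPKM in Tumor-AM and 518, 602 and 582 FPKM in Tumor-macrophage. It was lower in Tumor-macrophage than Tumor-AM by -2.33 ± 0.08 on the log2 scale (limma, adjusted p = 3.07e-09), a larger step than the -1.11 of S100a10. Accordingly, S100a10 was 0.326, 0.343 and 0.346 times Anxa2 in Ctrl-AM samples, 0.296, 0.359 and 0.347 times in Tumor-AM samples and 0.718, 0.908 and 0.721 times in Tumor-macrophage samples. These ratios did not overlap between AMs and TAMs, and the Tumor-macrophage ratio was 2.34 times that of Tumor-AM (exact permutation test, two-sided, p = 0.1, the smallest possible).

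For S100a11 and its partner Anxa1 the order was the reverse. Anxa1 was 753, 735 and 721 FPKM in Ctrl-AM, 883, 994 and 933 FPKM in Tumor-AM and 351, 368 and 382 FPKM in Tumor-macrophage. It rose in Tumor-AM by 0.35 ± 0.07 (limma, adjusted p = 0.0106) and was lower in Tumor-macrophage than Tumor-AM by -1.35 ± 0.07 (adjusted p = 6.76e-08). The ratio of S100a11 to Anxa1 was 1.54 to 1.79 in Tumor-macrophage against 2.66 to 3.42 in Tumor-AM, a factor of 0.543 without overlap (exact permutation test, p = 0.1). Anxa5, which is not tied to a single S100 member, stayed between 726 and 864 FPKM in all samples.

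Of the plasminogen genes around S100a10, Plaur, the urokinase receptor, was 973, 1034 and 999 FPKM in Ctrl-AM, 1365, 1180 and 1335 FPKM in Tumor-AM and 553, 522 and 546 FPKM in Tumor-macrophage. It rose in Tumor-AM by 0.37 ± 0.07 (limma, adjusted p = 0.0115) and fell from there to Tumor-macrophage by 1.26 ± 0.07 (adjusted p = 1.82e-07). Plau, which encodes urokinase itself, went the other way. It was at most 0.635 FPKM in the 6 AM samples and 6.39, 5.69 and 6.57 FPKM in Tumor-macrophage, an increase of 2.45 ± 0.16 over Tumor-AM (limma, adjusted p = 4.00e-07). Plg was at 0 in all samples, and Plat was below the filter.

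Of 3 genes around the release function of S100a13, Fgf1 was 1.96, 1.25 and 2.22 FPKM in Ctrl-AM, 1.10, 0.517 and 0.256 FPKM in Tumor-AM and 0.194, 0 and 0.0649 FPKM in Tumor-macrophage. It fell in Tumor-AM by 0.81 ± 0.21 (limma, adjusted p = 0.0340) and was lower again in Tumor-macrophage, by -0.55 ± 0.21 against Tumor-AM (adjusted p = 0.0470). Il1a, which encodes interleukin 1 alpha, was 107 to 114 FPKM in Ctrl-AM, 117 to 128 FPKM in Tumor-AM and 44.2 to 71.4 FPKM in Tumor-macrophage. It was lower in Tumor-macrophage than Tumor-AM by -1.09 ± 0.14 (limma, adjusted p = 7.62e-05), in the same comparison in which S100a13 was lower. Syt1 was at or near 0.

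Finally, the genes whose log2(FPKM + 1) followed the members most closely over the 9 samples were listed by Pearson correlation, as a description of samples that share groups. S100a4 was followed most closely by Mmp14 (r = 0.991), Pmp22 (r = 0.991) and H2-Q5 (r = 0.989). S100a6 was followed by Endod1 (r = 0.992), Smox (r = 0.989) and Gadd45a (r = 0.988), so these lists of 3 had no gene in common. For S100a8 the closest were Tlr7 (r = 0.956), Mocos (r = 0.955) and Gpr137b (r = 0.952).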

How the data were processed

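Sorted Ctrl-AM, Tumor-AM and Tumor-macrophage cells (3 samples each) were analysed. The authors used SMART-Seq HT for cDNA and Nextera for libraries, sequenced single-end reads of 75 bases, mapped them to mm10 with TopHat2 2.1.1 and Bowtie2 and deposited FPKM per gene symbol, for which the submitters' processing notes name Cuffdiff 2.2.1. Annotation, strand use and treatment of reads with several matches are not given in the sources used here. FPKM leaves uncorrected any very abundant RNA that takes up reads in 1 population alone.

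FPKM are not counts, so log2(FPKM + 1) was fitted in R 4.3.3 by limma 3.58.1 (prior variance with an intensity trend), with 3 group means sharing 1 spread, for 10686 genes with at least 1 FPKM in 3 samples. Tests were two-sided with Benjamini-Hochberg adjustment (threshold 0.05). The script was tested on simulated data. Ratios were tested by exact permutation. Depth (11100000 to 14000000 reads) was estimated from single-transcript genes, assuming fragments of 200 bases, with 76.9% to 83.9% of low values within 0.12 of a whole read, and it covers counting error only. Of all symbols, 95.74% matched GENCODE vM21. Motifs and promoters came from RefSeq tables, in Python 3.11.15 (numpy 2.4.6, pandas 2.3.3, matplotlib 3.10.9).

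The members and all lists (other S100 genes, partners, receptors, plasminogen, release, and markers of neutrophils, monocytes, AMs, TAMs, eosinophils, T and NK cells, B cells, dendritic cells, epithelium, fibroblasts and endothelium) were chosen with earlier results of these data known. Named genes were the members, other S100 genes, up to 4 genes per list by level or role, and the 3 genes most correlated with S100a4, S100a6 and S100a8. Genes named beyond 4 in a list were added after their values were seen. Alternatives were a pseudocount of 0.1, no filter, a filter of 5 FPKM, quantile normalization, TPM, median-ratio scaling, a constant prior variance, the replicate block, the 2 compared groups only, a 2-fold threshold and leaving out each sample.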

Additional observations from a re-analysis of the deposited data

How the results depend on the processing

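Of 456 values of single S100 genes under the alternatives, 437 kept their direction and their side of the threshold, 7 newly passed it, 6 lost it and 6 turned sign. All 6 that turned were differences between Tumor-AM and Ctrl-AM that had not passed: S100a10 under quantile normalization (-0.055), TPM (-0.092), without Tumor-AM 2 (-0.0155) and without Tumor-AM 3 (-0.0136), S100a11 under quantile normalization (-0.109) and S100a1 without Tumor-AM 1 (0.0218). Leaving out 1 sample gave -0.0155 to 0.170 for S100a10 and -0.142 to 0.0218 for S100a1. Rescaling to TPM moved the median change of all genes to -0.11 in Tumor-AM against Ctrl-AM and -0.22 in Tumor-macrophage against Ctrl-AM. In that scaling S100a8 (-0.52, adjusted p = 0.0222) and S100a9 (-1.05, adjusted p = 0.0363) passed in Tumor-macrophage against Ctrl-AM. S100a4 and S100a6 passed in all 3 comparisons in every setting with a p, and at least 2-fold was not reached by S100a6 (0.79), S100a8 (-0.89) or S100a13 (-0.73) between the tumor populations, nor by S100a13 (-0.85) in Tumor-macrophage against Ctrl-AM. With at least a 2-fold change, the members called between the tumor populations numbered 4 in place of 7, and the genes called were 208 in place of 1100 (Tumor-AM against Ctrl-AM), 1827 in place of 5191 (Tumor-macrophage against Tumor-AM) and 2150 in place of 5860 (Tumor-macrophage against Ctrl-AM). Leaving out 1 sample gave 538 to 1254, 4701 to 5007 and 5214 to 5863 genes in these comparisons and 2 to 4, 7 to 8 and 6 to 7 members. The cause of these shifts was not tested beyond the fewer samples or stricter rule. In Tumor-AM against Ctrl-AM the count fell by over 1.5 times without Ctrl-AM 1 (538), Ctrl-AM 2 (690), Ctrl-AM 3 (549), Tumor-AM 1 (733) or Tumor-AM 3 (674).

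The labels number the samples 1 to 3 in each group without saying that a number marks a shared mouse or day. Deviations of samples with the same number had a mean correlation of 0.06 (-0.06 to 0.16), against -0.03 for other numbers. Of 9 samples, 7 correlated best with a sample of their own number. Some of these matches joined Ctrl-AM and Tumor-AM samples (r = 0.08 for number 1 and 0.16 for number 2), which came from different mice. Deviations cancel out within each group, so the mean correlations are not independent, and no pairing was drawn from them. With the replicate number as a block, 938, 5069 and 5772 genes and 3, 7 and 6 members passed, and no call on a member changed. S100a9 in Tumor-AM and the S100 genes near 0 had few reads, which limits the precision of their changes.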

Other observations

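Cell types outside the myeloid lists were read in the same libraries, since S100 genes are expressed in many of them. The 4 eosinophil markers were near 0, with sums of at most 1.35 FPKM, Epx at 0 throughout and none tested. Of 5 T and NK cell markers tested, none passed in Tumor-AM against Ctrl-AM, 4 were higher in Tumor-macrophage against Tumor-AM and 5 against Ctrl-AM. The sums were 6.35 to 8.46 FPKM in Ctrl-AM, 6.74 to 19.8 FPKM in Tumor-AM and 28.3 to 54.8 FPKM in Tumor-macrophage. Of 4 B cell markers, 1 was lower in Tumor-AM against Ctrl-AM, and all 4 were higher in Tumor-macrophage than in either AM group, with sums of 12.7 to 16.8, 3.15 to 7.49 and 31.5 to 58.2 FPKM. Of 5 dendritic cell markers tested, 1 was lower in Tumor-AM, and 3 were higher in Tumor-macrophage in both comparisons. In Tumor-macrophage against either AM group, the 8 tumor macrophage markers were higher and the 10 AM markers lower, without exception. Of 8 monocyte markers tested, Tumor-macrophage had 6 higher and 1 lower against Tumor-AM, and 7 higher and 1 lower against Ctrl-AM.

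Single samples stood out for epithelial and fibroblast markers. Scgb1a1, the club cell secretory gene, was 169 FPKM in Ctrl-AM 1 and 53.2 FPKM in Tumor-AM 1 and at most 11.7 FPKM in every other sample. Of 5 epithelial markers tested, 1 was higher in Tumor-AM and 1 in Tumor-macrophage against Ctrl-AM, and none passed between the tumor populations. It was Hopx in both cases, with means of 5.88 FPKM in Ctrl-AM, 18.6 FPKM in Tumor-AM and 23.0 FPKM in Tumor-macrophage. The means of S100a4 and S100a6 had the same order. Dcn, a fibroblast proteoglycan gene, was 25.7 FPKM in Tumor-AM 3, the sample with the highest S100a6 of the AMs, and at most 6.87 FPKM in every other sample. Of the 2 fibroblast and endothelial markers tested, none passed between the AM groups and 1 was higher in Tumor-macrophage in each of the other comparisons. The shares over all genes tested are those given above for the other cell types. Without Tumor-AM 3, S100a4 and S100a6 still passed between Tumor-AM and Ctrl-AM, and the part of these cell types in S100 levels was not tested.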
